A study of Rattus norvegicus with 9 samples.

Results

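The liver transcriptome of 3 PZH administration rats (G27, G28 and G42) was set against that of 3 DEN model rats (M13, M17 and M24), which are 6 of the 9 rats sequenced. Members were the count columns of these 6 rats, taken across all genes of the deposited table. All 6 were male Sprague-Dawley rats, of an age the sources used here do not give. They received diethylnitrosamine (DEN), a carcinogen activated in the liver, at 0.01% by weekly intraperitoneal injection. The study's protocol ran for 16 weeks, and the number of injections of each sequenced rat is not stated. The rats of the PZH administration group also received Pien-Tze-Huang (PZH), a traditional Chinese medicine. The study gave PZH at a low and a high dose and took livers at several weeks, and neither the dose nor the week of a sequenced rat is stated. The treatment tag in the labels reads PZH for the 3 M rats as well, so the groups rest on the first letter of the rats' names. The 3 normal control rats (N1, N12 and N3), without DEN or PZH, appear here only as a background beside the values.

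The adult liver secretes most plasma proteins, makes bile acids, disposes of nitrogen through the urea cycle and carries the cytochrome P450 enzymes that oxidise drugs and steroids. Repeated DEN injury replaces this tissue step by step with scar matrix made by activated stellate cells, with bile-duct-like (ductular) cells and with proliferating nodules. In male rats, pulses of growth hormone keep a set of male-patterned P450 and urinary protein genes active.

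The DEN model libraries held 15259441 to 16641954 counts and the PZH administration libraries 14922973 to 27161496, with G27 the deepest. Values per rat are in CPM, counts set relative to the library's total and scaled with TMM factors, a method that equalises the bulk of genes between libraries. A count of 3, used as the floor, equalled 0.125 to 0.214 CPM in these rats and covers counting error only. The 10 most abundant genes took 22.4% to 22.6% of the counts in each PZH administration library, while their share in the DEN model libraries was 13.9% to 18.3%. Hepatocyte markers were abundant in each library, with Alb, the serum albumin gene, at no less than 14098 CPM. The labels name no cultures or litters, and each library is 1 rat, so the p-values measure the spread between rats. In this bulk tissue, fewer cells of a type and less RNA per cell cannot be told apart.

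Rat M17 stood apart within the DEN model group. On the first principal component of the 6 rats, which held 65% of the variance, the PZH administration rats lay at -50.1 to -71.7, M17 at 27.5, and M13 and M24 at 74.5 and 78.1. The root mean square log2 difference from M17 to the PZH administration rats was 0.859 to 1, against 1.15 to 1.37 from M13 and M24. Counts of called genes in a list are therefore followed by their lowest and highest values when each of the 6 rats was left out in turn, with the rat left out in brackets.

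Of 32883 genes in the table, 14272 had enough counts to be tested, and 2722 of them (19.1%) differed. A gene counts as called below where its adjusted p (quasi-likelihood test of edgeR, Benjamini-Hochberg over all genes tested) was under 0.05. In the PZH administration group 1245 genes (8.72%) were higher and 1477 (10.3%) were lower. Their median absolute log2 fold change was 1.28 for the higher and 1.56 for the lower genes. At the thresholds of the study (a log2 fold change beyond 2 in either direction, with P under 0.001 before adjustment) 347 genes (2.43%) passed, 154 higher (1.08%) and 193 lower (1.35%). The study does not state the base of its logarithm, which was taken as 2 here. It reported more genes for this comparison from its own test, and the cause of the difference was not tested. Direction followed level. Of the 86 genes with a mean of at least 1000 CPM, 26 were higher and 0 lower, and of the 1185 genes between 100 and 1000 CPM, 324 were higher and 60 lower, whereas between 1 and 10 CPM 188 of 5176 genes were higher and 717 lower. Over all genes tested the log2 fold change had a median of 0.01. With library totals in place of TMM factors that median moved to -0.67 and the split became 556 higher and 5696 lower, so all directions below are relative to the TMM scaling. Without M13, 271 genes were called, without M24 725, without G28 1178 and without G42 1221. Of the 115 called identifiers named in the paragraphs below, 43 kept their call without each of the 6 rats in turn, Cyp2c11 and Kynu among them, and 70 lost it without M13. Library totals raised the count of lower genes in several lists below, from 26 to 42 of 45 matrix genes and from 20 to 49 of 53 cell cycle genes for example. M17 was the DEN model rat nearest to the PZH administration group in 85.6% of the genes called higher and 74.6% of those called lower.

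**Figure D1:**
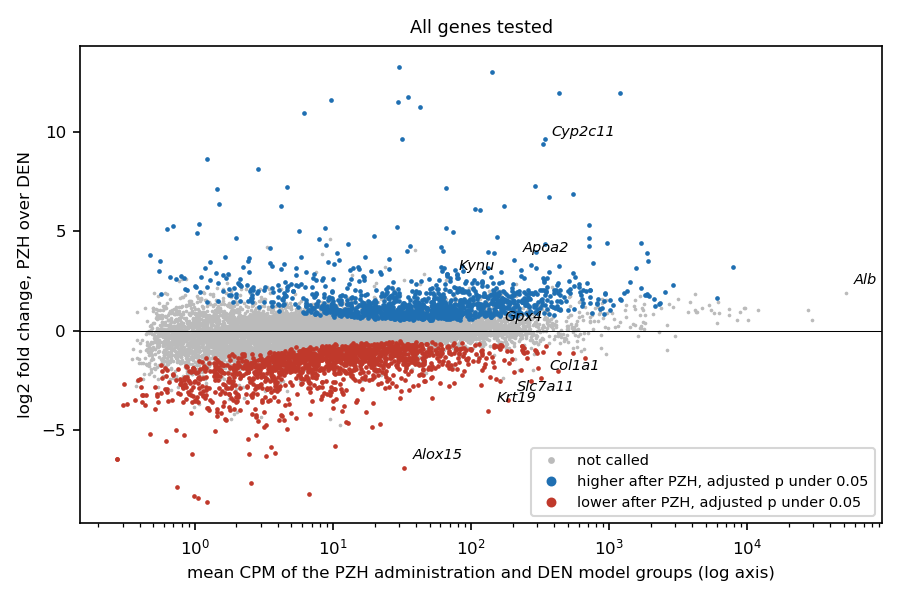
Each point is 1 of the 14272 genes tested, with its mean CPM over both groups on a log axis and its log2 fold change (PZH administration over DEN model) on the other. The 1245 genes higher after PZH (blue) reach the highest levels, while the 1477 lower genes (red) lie mostly at low and middle levels. Alb, the rightmost point, was not called.

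The male-patterned genes had the highest median of all lists. Of the 14 genes listed, 10 stand in the table under 11 identifiers, and 10 of these 11 were higher and 0 lower, with 7 (M13) to 10 (M17) higher when 1 rat was left out. The list's median log2 fold change was 4.66 against 0.01 over all genes. Cyp2c11, a male-specific steroid hydroxylase, was at 874, 713 and 402 CPM in G27, G28 and G42, at 0.976, 1.44 and 0.623 CPM in M13, M17 and M24, and at 1210 to 2097 CPM in the normal rats. Every PZH administration rat was far above every DEN model rat, and all were below the lowest normal rat. The log2 fold change was 9.39 (SE 0.52, adjusted p = 0.000529). Cyp4a2, a fatty acid omega-hydroxylase, had 1921, 1655 and 619 CPM after PZH and 30.6, 38 and 39.4 CPM in the DEN model rats (log2 fold change 5.31, SE 0.49, adjusted p = 0.00288). Hsd3b5, a male-patterned ketosteroid reductase, was uneven among the PZH administration rats, with 511, 338 and 41.1 CPM after PZH against 19, 5.89 and 10.4 CPM. Its lowest PZH administration rat, G42, was still above the highest DEN model rat (log2 fold change 4.69, SE 0.89, adjusted p = 0.0153). Srd5a1, a testosterone reductase counted in this list, was the identifier not called (log2 fold change 0.40, adjusted p = 0.556). Whether Srd5a1 is male-patterned cannot be read from these rats, which were all male.

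Mup4 codes for a major urinary protein, one of the small lipid carriers that male rats excrete. Its 2 identifiers held 597, 156 and 99.8 CPM and 81.3, 55.9 and 51 CPM after PZH, and no more than 0.125 CPM in any DEN model rat. Against the floor of 3 counts per library, the first was at least 2129-fold and the second at least 470-fold higher (adjusted p = 0.00242 and 0.000529). Near-identical copies in this family may share reads, so the values of single identifiers are uncertain. Both identifiers passed the count filter only through the PZH administration rats.

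Promoters of some P450 genes are shown because these genes rose far and each has a TATA box close to its start. The stretches below are the 150 bases before the start of 3 genes that were higher, Cyp2c11, Cyp2c7 and Cyp2c13, and of 2 that were lower, Plet1 and Anxa2, picked after their values were seen. They are from RefSeq (build GRCr8), written 5′ to 3′ on the strand of the gene, and the capitals mark TATAAA and TGANTCA, the core of an AP-1 site. In GRCr8 they lie at chr1:246175066-246175215 (plus strand), chr1:247966244-247966393 (plus), chr1:248787189-248787338 (minus), chr8:59738489-59738638 (plus) and chr8:78986102-78986251 (plus).
Cyp2c11: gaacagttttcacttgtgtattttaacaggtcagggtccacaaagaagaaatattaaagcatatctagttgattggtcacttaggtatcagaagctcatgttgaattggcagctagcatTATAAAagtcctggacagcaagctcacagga
Cyp2c7: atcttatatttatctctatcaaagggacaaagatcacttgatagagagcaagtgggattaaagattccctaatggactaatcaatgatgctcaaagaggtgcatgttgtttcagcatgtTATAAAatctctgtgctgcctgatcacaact
Cyp2c13: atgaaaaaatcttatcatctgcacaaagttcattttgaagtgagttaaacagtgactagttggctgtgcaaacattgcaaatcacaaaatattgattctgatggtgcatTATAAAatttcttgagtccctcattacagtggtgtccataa
Plet1: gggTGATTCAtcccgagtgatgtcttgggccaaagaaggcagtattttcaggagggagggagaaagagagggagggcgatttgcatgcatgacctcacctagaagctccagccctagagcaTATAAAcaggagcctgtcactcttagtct
Anxa2: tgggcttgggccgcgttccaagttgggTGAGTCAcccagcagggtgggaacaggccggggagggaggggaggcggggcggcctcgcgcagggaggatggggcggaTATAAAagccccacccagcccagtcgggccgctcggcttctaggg

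The TATA box of Cyp2c11 and of Cyp2c7 begins at base -31 from the start and that of Cyp2c13 at base -41. Plet1, an epithelial progenitor surface protein gene, has a TATA box from -29 and an AP-1 core from -147, and Anxa2, a calcium-dependent membrane-binding protein gene, has them from -45 and -123. Cyp2c13 was at 1526, 1423 and 1154 CPM after PZH and 19.7, 88.1 and 57.1 CPM in the DEN model rats, and Cyp2c7, which makes a retinoid hydroxylase, was at 1808, 1114 and 1154 CPM and 46.6, 134 and 32.6 CPM. Plet1 was at 1.24, 1.11 and 1.57 CPM after PZH and 46.8, 4.9 and 14.1 CPM in the DEN model rats, and Anxa2 at 40.6, 46.2 and 45.8 CPM and 226, 134 and 325 CPM. None of these 4 genes overlapped between the groups, which held for 40.9% of all genes tested.

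Over the 9450 tested genes with 1 matching RefSeq window of 300 bases (250 before to 50 after the start), TATAAA on either strand stood in 7.01%. It stood in 21.8% of the 87 matched genes higher and 12.7% of the 118 lower at the study's thresholds, but in 8.78% and 8.8% of those higher and lower at an adjusted p under 0.05. GGGCGG, the GC box, stood in 61.6% of all matched genes, in 29.9% of the 87 and in 51.7% of the 118. At an adjusted p under 0.05 it stood in 59.4% of those higher and 59.0% of those lower. TGANTCA stood in 5.09% of all, in 3.45% of the 87 and in 11% of the 118, and CCGGAAG, an ETS core, in 17.1%, 1.15% and 6.78%. At an adjusted p under 0.05, TGANTCA stood in 5.22% of those higher and 8.7% of those lower, and CCGGAAG in 10.8% and 6.94%. Among all 24206 RefSeq windows with a unique symbol, the shares were 14.3% for TATAAA, 35.9% for GGGCGG, 7.33% for TGANTCA and 9.49% for CCGGAAG. These are counts of letters in a window, without a test.

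The receptors and products of the growth hormone axis were in part higher. Of 13 genes tested, 4 were higher and 0 lower, with 0 (M13) to 4 (M17, G42) higher when 1 rat was left out. That was 30.8% called, against 19.1% of all genes tested. Their median log2 fold change was 0.64, with a range of 0.22 (G27) to 1.0 (G42) when 1 rat was left out and -0.02 with library totals. Ghr, the growth hormone receptor, had 591, 535 and 543 CPM after PZH and 118, 208 and 114 CPM in the DEN model rats, a log2 fold change of 1.95 (SE 0.29, adjusted p = 0.00981). Igf1, the circulating growth factor that growth hormone induces, had 360, 513 and 368 CPM against 96.7, 163 and 47.5 CPM (log2 fold change 2.04, adjusted p = 0.0186), and the normal rats lay at 423 to 463 CPM. Igfals, which stabilises IGF in serum, rose by a log2 fold change of 2.81 (adjusted p = 0.0374), as did Egfr, the EGF receptor, by 1.94 (adjusted p = 0.0116). All 4 were apart between the groups, which held for 40.9% of all genes tested.

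Enzymes of drug and steroid metabolism outside that list followed. Of 22 P450 and conjugation genes tested out of 34 listed, 15 were higher and 0 lower (median log2 fold change 1.77), with 4 (M13) to 16 (M17) higher when 1 rat was left out, and 13 higher and 3 lower with library totals. Cyp3a23/3a1, a drug- and steroid-oxidising P450, was at 1259, 1177 and 794 CPM after PZH and at 1.1, 24 and 3.07 CPM in the DEN model rats (log2 fold change 6.87, SE 1.15, adjusted p = 0.0119). Among the DEN model rats M17 was the highest, and all were far below the PZH administration rats. Cyp2e1, which oxidises ethanol and also DEN, was at 3107, 3423 and 1845 CPM against 149, 629 and 183 CPM (log2 fold change 3.15, SE 0.61, adjusted p = 0.0161). Cyp1a2, the caffeine-oxidising P450, rose by 3.17 (adjusted p = 0.0262) and Fmo1, a flavin monooxygenase, by 1.98 (adjusted p = 0.0075). Cyp2c24 (log2 fold change 0.59, adjusted p = 0.288) and Sult1a1, a phenol sulfotransferase (1.18, adjusted p = 0.0514), did not pass.

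The remaining genes with the largest rises at the study's thresholds included transporters, receptors and conjugating enzymes. Sult1e1, the oestrogen sulfotransferase, was at 627, 1196 and 367 CPM after PZH and at 0.212, 14.9 and 6.1 CPM in the DEN model rats (log2 fold change 6.72, SE 1.23, adjusted p = 0.0143). Ust5r, a gene of the organic anion transporter family, was even within the groups, with 122, 139 and 126 CPM against 2.29, 5.54 and 3.32 CPM (log2 fold change 5.15, SE 0.34, adjusted p = 0.00079). Avpr1a, the vasopressin V1a receptor, had 70.9, 52 and 45.8 CPM against 0.764, 3.81 and 0.166 CPM (log2 fold change 5.21, adjusted p = 0.0108). In all 3 genes the groups were apart, as in 40.9% of all genes tested. In Ust5r and Avpr1a every normal rat lay above every PZH administration rat. Dhrs7l1, Lrtm2, Aox3 (an aldehyde oxidase) and Acnat2 (a fatty acid conjugating enzyme) had log2 fold changes of 6.27, 5.14, 5.0 and 4.94, with adjusted p from 0.00218 to 0.0144.

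**Figure D2:**
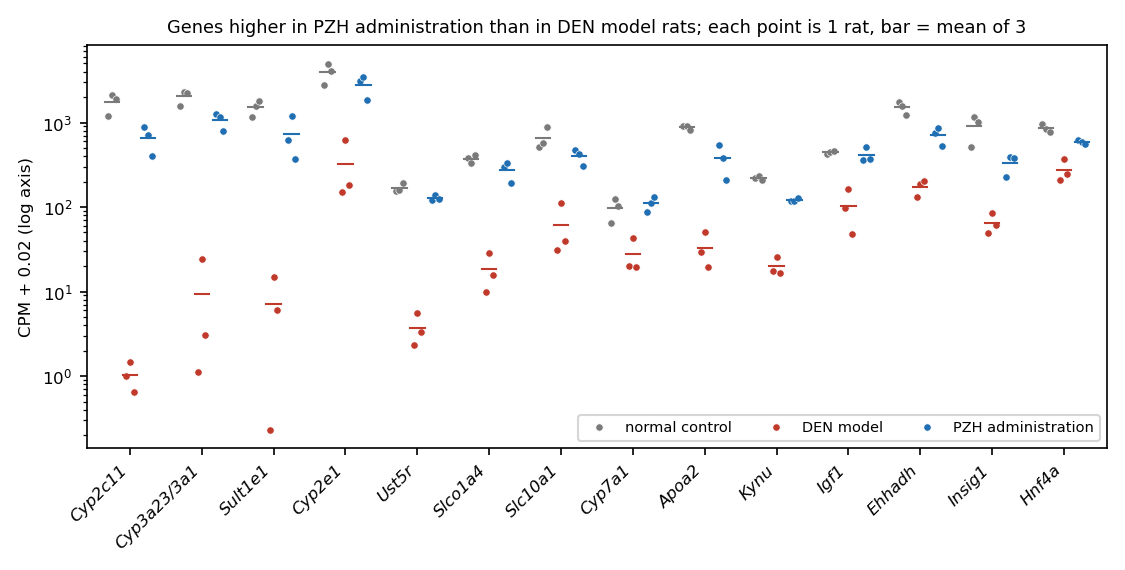
CPM plus 0.02 on a log axis for 14 genes higher after PZH, with 1 point per rat and the mean of 3 rats as a bar. In every gene drawn, the 3 PZH administration rats (blue) lie above the 3 DEN model rats (red), as in 18.5% of all genes tested. Levels are not scaled for transcript length and compare rats within a gene only.

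Bile acid genes were higher at both ends of the pathway. Of 21 tested, 14 were higher and 0 lower (median log2 fold change 1.36), with 3 (M13) to 17 (M17) higher when 1 rat was left out, and 12 higher and 3 lower with library totals. Cyp7a1, the rate-limiting enzyme of bile acid synthesis, was at 87.9, 113 and 130 CPM after PZH and 20.3, 42.5 and 19.7 CPM in the DEN model rats, with 64.6 to 125 CPM in normal rats (log2 fold change 2.02, SE 0.33, adjusted p = 0.0116). The PZH administration and normal rats overlapped in this gene. Slc10a1, the sodium-dependent bile salt importer, had 475, 421 and 302 CPM against 31.1, 112 and 39.8 CPM (log2 fold change 2.74, SE 0.50, adjusted p = 0.014), and Slco1a4, an organic anion importer, rose by 3.93 (SE 0.44, adjusted p = 0.00606). Abcb11, the bile salt export pump, rose by 1.99 (adjusted p = 0.0223). Cyp8b1, the sterol hydroxylase that sets the make-up of the bile acid pool, had a log2 fold change of 0.99 (adjusted p = 0.148), with M17 at 359 CPM just under the lowest PZH administration rat at 389 CPM.

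Secreted plasma proteins were higher or not called. Of 36 tested, 16 were higher and 0 lower (median log2 fold change 1.45). The count of higher genes was 2 without M13, 3 without M24, 7 without G27 or G28, 8 without G42 and 32 without M17. Apoa2, a high-density lipoprotein apolipoprotein, was at 536, 384 and 211 CPM after PZH and 29.2, 50.4 and 19.5 CPM in the DEN model rats (log2 fold change 3.54, SE 0.47, adjusted p = 0.00891). Alb did not pass, with 98339, 75950 and 68788 CPM after PZH and 21002, 30787 and 14098 CPM in the DEN model rats (log2 fold change 1.91, SE 0.57, adjusted p = 0.0503). The groups did not overlap in Alb, as in 40.9% of all genes tested, and without M17 its adjusted p was 0.00738. Of 13 acute-phase genes 23.1% were called, against 19.1% of all genes tested. Among these genes Crp (C-reactive protein, log2 fold change 2.30, adjusted p = 0.0312) and Itih3 (1.84, adjusted p = 0.0347) were higher. None was higher without M13, M24, G27 or G28, 1 was without G42 and 8 were without M17. Lcn2, a siderophore-binding protein of injured liver, was the one that was lower, at 7.12, 13.1 and 12.1 CPM against 86.9, 55.3 and 71.5 CPM (log2 fold change -2.71, SE 0.28, adjusted p = 0.00513). A2m, the rat acute-phase macroglobulin, had 0.85 (adjusted p = 0.306).

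Amino acid catabolism gave 20 higher and 0 lower of 44 genes (median log2 fold change 1.53). The count was 2 without M13, 5 without M24, 8 without G42, 11 without G27 or G28 and 41 without M17. Kynu, which cleaves kynurenine in tryptophan breakdown, was at 119, 117 and 127 CPM after PZH and 17.6, 25.5 and 16.4 CPM in the DEN model rats, with 209 to 235 CPM in normal rats. The PZH administration rats fell in a narrow band between the other groups, and the fold was 6.21 (log2 fold change 2.63, SE 0.22, adjusted p = 0.00188). Tat, the tyrosine aminotransferase (log2 fold change 2.06, adjusted p = 0.0131), Cth, which makes cysteine from cystathionine (2.64, adjusted p = 0.0163), and Tdo2, which opens the tryptophan ring (1.87, adjusted p = 0.0424), also rose. Of the 9 urea cycle genes 33.3% were called, against 19.1% of all genes tested. The urea cycle had 3 of 9 genes higher, with 0 (M13, M24, G28, G42) to 8 (M17) when 1 rat was left out. Its entry enzyme Cps1 was at 4777, 6183 and 8371 CPM against 2062, 5154 and 1625 CPM, so that M17 lay among the PZH administration rats (log2 fold change 1.15, adjusted p = 0.147). Arg1, the final enzyme of the cycle, had 1.39 (adjusted p = 0.0725). Without M17 these became 1.81 and 2.11, with adjusted p of 0.00914 and 0.00263.

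Fatty acid oxidation and fat synthesis were higher together. In oxidation and ketone formation 16 of 27 genes were higher and 0 lower (median log2 fold change 1.12), with 2 (M13) to 23 (M17) higher when 1 rat was left out, and 8 higher and 1 lower (median 0.47) with library totals. Ehhadh, a peroxisomal beta-oxidation enzyme, had 749, 871 and 524 CPM after PZH and 132, 187 and 202 CPM in the DEN model rats (log2 fold change 2.07, SE 0.29, adjusted p = 0.00919). Hadh, a mitochondrial step, rose by 1.53 (adjusted p = 0.00858), while Cpt1a, which admits fatty acids to mitochondria, had 0.77 (adjusted p = 0.0688). Among lipid and sterol synthesis genes 22 of 31 were higher and 0 lower (median 1.25), with 3 (M13) to 24 (M17) higher when 1 rat was left out, and 11 higher and 1 lower with library totals. Insig1, a sterol-sensing brake on this pathway, was at 229, 395 and 381 CPM against 49, 85.9 and 61.7 CPM (log2 fold change 2.37, SE 0.31, adjusted p = 0.00858). Fasn, the fatty acid synthase, was at 150, 142 and 209 CPM after PZH, at 49.5, 70.8 and 89.4 CPM in the DEN model rats and at 81.6 to 87.4 CPM in the normal rats, so the PZH administration rats lay above both (log2 fold change 1.27, adjusted p = 0.0191).

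Glucose enzymes split by isozyme. Of 12 forms typical of adult liver, 8 were higher and 0 lower (median log2 fold change 1.28), and of 18 forms typical of other tissues or tumours, 12 were lower and 1 higher (median -1.31). When 1 rat was left out, the liver forms had 0 (M13) to 11 (M17) higher and the other forms 1 (M13) to 12 (M17) lower. Hk2, the hexokinase of muscle and tumours, was at 4.31, 6.33 and 3.7 CPM against 12.6, 8.61 and 38 CPM (log2 fold change -2.03, SE 0.55, adjusted p = 0.0372), with M24 far above the other DEN model rats. Pyruvate kinase divided by form, Pklr (liver) with a log2 fold change of 1.45 (adjusted p = 0.0137) and Pkm with -2.31 (adjusted p = 0.0136). Glycogen phosphorylase divided too, Pygl (liver) at 0.91 (adjusted p = 0.0359) and Pygb (brain) at -1.51 (adjusted p = 0.00891). Aldoa, the aldolase of muscle, fell by 1.40 (adjusted p = 0.0103). Ldha, the lactate dehydrogenase counted with the other-tissue forms, was the one higher (0.91, adjusted p = 0.0369), and the normal rats had the highest Ldha of all, at 1931 to 2039 CPM.

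**Figure D3:**
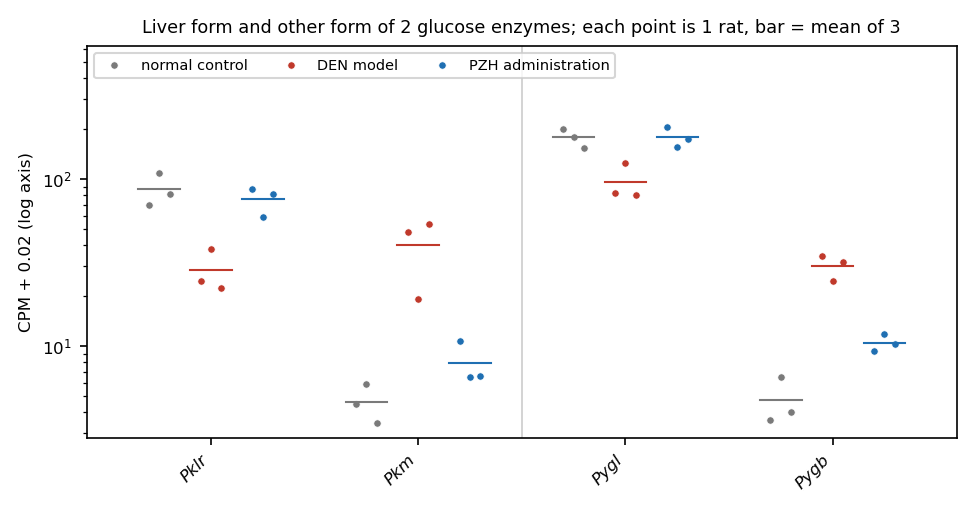
CPM plus 0.02 on a log axis for the liver form (left of each pair) and another form (right) of 2 glucose enzymes, pyruvate kinase and glycogen phosphorylase, 1 point per rat and the mean of 3 rats as a bar. In each pair the points of the PZH administration rats (blue) lie above those of the DEN model rats (red) for the liver form and below them for the other form. Such separation held for 18.5% of all genes tested upward and for 22.5% downward.

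Transcription factors of hepatocytes were 8 higher and 1 lower of 21 tested (median log2 fold change 1.10), with 1 (M13, M24) to 13 (M17) higher when 1 rat was left out, and 3 higher and 3 lower with library totals. Hnf4a, the central hepatocyte nuclear receptor, was at 615, 581 and 551 CPM after PZH and 211, 366 and 243 CPM in the DEN model rats (log2 fold change 1.11, SE 0.27, adjusted p = 0.0265). Thrb, the hepatic thyroid hormone receptor, rose by 1.37 (SE 0.20, adjusted p = 0.00922). Onecut1 had 1.12 (adjusted p = 0.213), a value that turned to -0.05 without G27. Of 14 pericentral and Wnt target genes 7 were higher and 1 lower (median 1.76), with 1 (M13) to 9 (M17) higher when 1 rat was left out. Notum, a secreted Wnt deacylase, rose by 3.53 (SE 0.47, adjusted p = 0.00891) and Nkd1, a Wnt feedback inhibitor, fell by 1.17 (adjusted p = 0.0258). The classical pericentral enzyme Glul, glutamine synthetase, was at 309, 226 and 149 CPM against 234, 266 and 192 CPM (log2 fold change 0.01, adjusted p = 0.982), and Axin2 had 0.74 (adjusted p = 0.163).

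**Figure D4:**
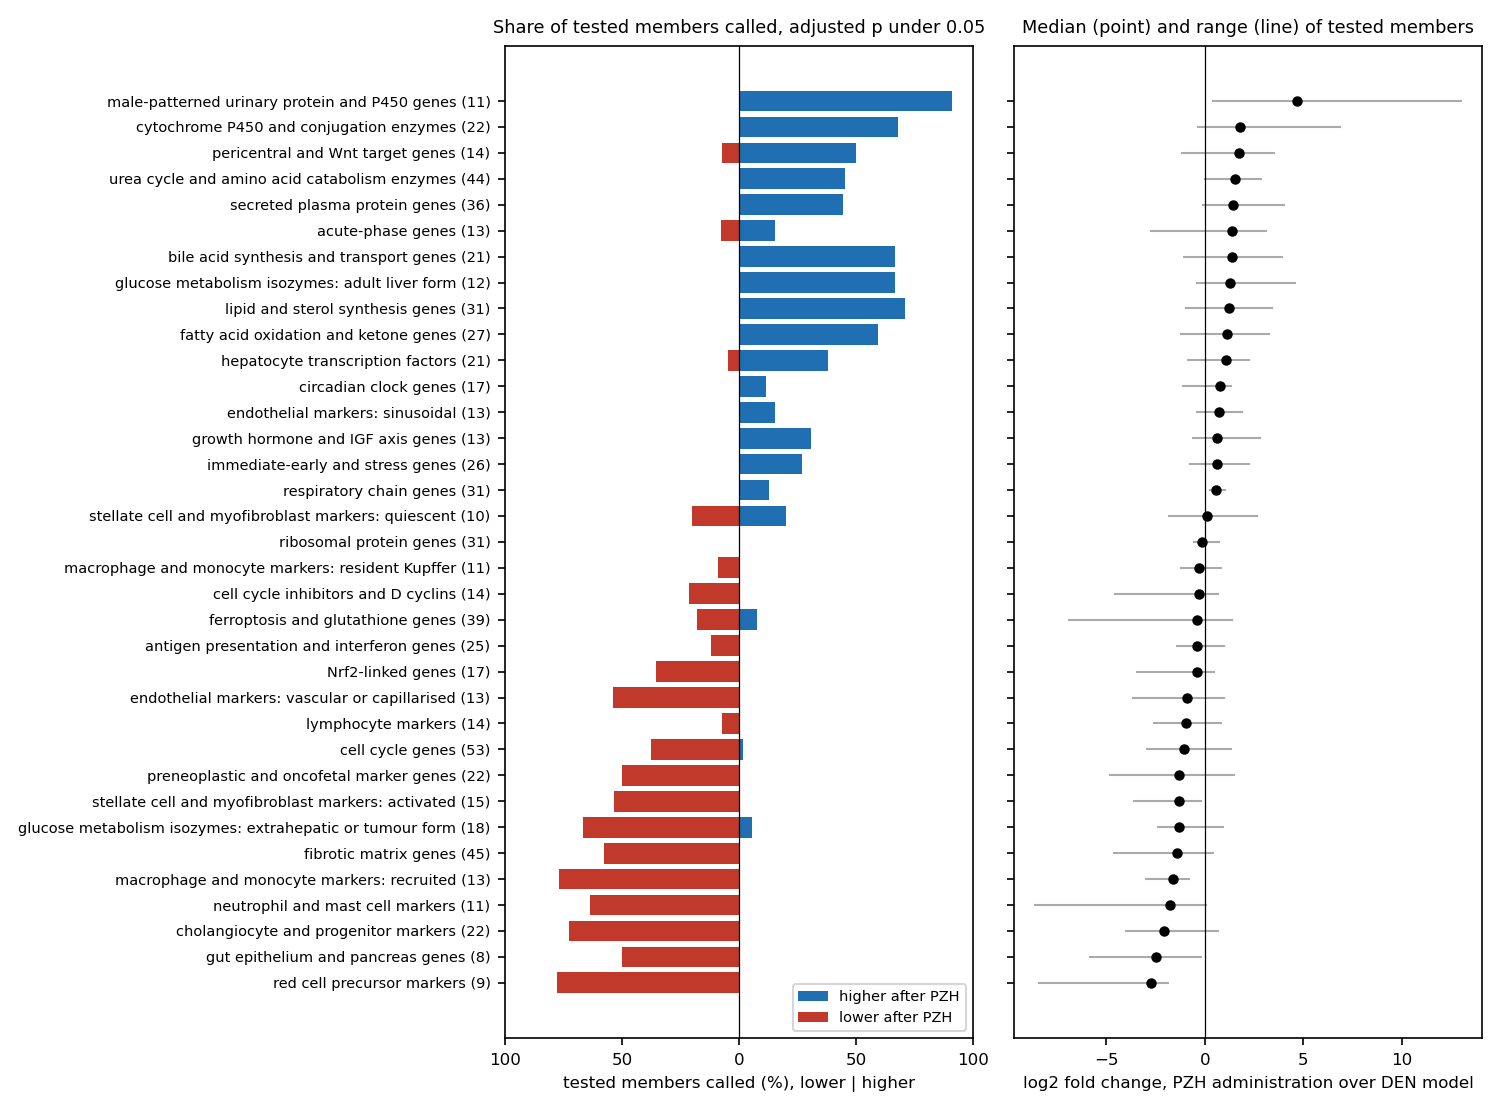
For each gene list (tested members in brackets), the left panel gives the percentage of tested members called higher (blue) or lower (red) after PZH, and the right panel the median log2 fold change (point) with the range from lowest to highest member (line). The male-patterned genes stand at the top with a median of 4.66, the fibrotic matrix genes lower down at -1.43 and the cholangiocyte markers near the bottom at -2.05. Over all genes 19.1% were called and the median was 0.01.

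Cholangiocyte and progenitor markers, which label bile duct and ductular cells, were widely lower. Of 25 listed, 22 were tested and 16 were lower and 0 higher (median log2 fold change -2.05), with 7 (M13) to 17 (M17) lower when 1 rat was left out. Krt19, a duct keratin, was at 11.4, 19.3 and 15.2 CPM after PZH and 367, 50.9 and 333 CPM in the DEN model rats, with no more than 2.34 CPM in normal rats (log2 fold change -4.01, SE 0.68, adjusted p = 0.0125). M17 was far below M13 and M24 but above every PZH administration rat. Sox9, the progenitor transcription factor, had 3.16, 5.98 and 5.62 CPM against 24.3, 17.2 and 22.4 CPM (log2 fold change -2.10, SE 0.29, adjusted p = 0.00891). Cldn4, an epithelial tight junction protein, fell by 2.91 (adjusted p = 0.0089) and Epcam, the epithelial adhesion molecule, by 1.39 (adjusted p = 0.0203).

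Among the strongest falls at the study's thresholds, several were genes of gut and duct epithelium. Klf5, a transcription factor of gut and duct epithelium, was at 1.07, 1.74 and 2.06 CPM after PZH and 46, 8.12 and 72.9 CPM in the DEN model rats (log2 fold change -4.71, SE 0.77, adjusted p = 0.0116). Slc15a1, the intestinal peptide transporter, was at 0.768, 0.626 and 1.64 CPM against 32.2, 5.44 and 36.8 CPM, and at 0 CPM in all normal rats (log2 fold change -4.62, adjusted p = 0.0115). Car4, a membrane carbonic anhydrase, was at no more than 0.0853 CPM after PZH and at 7.98, 0.841 and 31.4 CPM in the DEN model rats, at least 73.1-fold lower against the floor (adjusted p = 0.0166). Cpa1, a pancreatic carboxypeptidase, was at 0.0426, 0.974 and 0.142 CPM against 42.2, 15 and 3.4 CPM (log2 fold change -5.80, adjusted p = 0.0166). Car4 and Cpa1 needed the DEN model rats to pass the count filter and could hardly have been called higher. Their direction is therefore no separate support. In Klf5, Slc15a1 and Car4 the lowest DEN model rat was M17, and in Cpa1 it was M24. F2rl1 (protease-activated receptor), Degs2 (a sphingolipid hydroxylase), Krt20 (a gut keratin) and Plet1 had log2 fold changes of -4.41, -4.17, -3.80 and -4.05, with adjusted p from 0.00832 to 0.0161. Of the 22 gut and pancreas genes listed only 8 could be tested, of which 4 were lower (2 without M13), namely Cpa1, Slc15a1, Vil1 (a brush border protein, -3.16) and Dclk1 (a tuft cell kinase). Dclk1 was even within the groups, with 6.31, 6.61 and 8.68 CPM against 46.8, 36.3 and 43 CPM (log2 fold change -2.53, SE 0.20, adjusted p = 0.00172). Gucy2c, the intestinal guanylyl cyclase, did not pass (-2.46, adjusted p = 0.0877), with G42 at 12.7 CPM above the lowest DEN model rat at 11.7 CPM.

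Preneoplastic and oncofetal markers were divided. Of 22 tested out of 28 listed, 11 were lower and 0 higher (median log2 fold change -1.29), with 3 (M13) to 13 (M17) lower when 1 rat was left out. Gpc3, an oncofetal proteoglycan, was at 14.1, 22.3 and 28 CPM after PZH and 110, 35.3 and 99.6 CPM in the DEN model rats (log2 fold change -1.91, adjusted p = 0.0227), and Akr1b7, an aldo-keto reductase, at 1.11, 1.32 and 1.42 CPM against 20.5, 69.7 and 20.2 CPM (log2 fold change -4.82, SE 0.57, adjusted p = 0.0078). Gstp1, the placental glutathione transferase that labels rat preneoplastic foci, was at 252, 758 and 731 CPM against 1033, 1505 and 1384 CPM and at 12.1 to 17 CPM in normal rats. The groups were apart, as in 40.9% of all genes tested, but the change did not pass (log2 fold change -1.16, SE 0.42, adjusted p = 0.0901). Aldh3a1, another focus marker, overlapped, with 24.7, 194 and 53.1 CPM against 98.6, 59.6 and 146 CPM (adjusted p = 0.898). Afp, the alpha-fetoprotein gene, was at 15.9 to 20.2 CPM after PZH and at 8.95, 14.1 and 206 CPM in the DEN model rats, so that M24 alone was high (log2 fold change -2.11, adjusted p = 0.19, and 0.63 without M24).

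Scar matrix genes were lower or not called. Of 45 matrix genes tested out of 49 listed, 26 were lower and 0 higher (median log2 fold change -1.43). The count of lower genes was 5 without M13, 9 without M24, 10 without G28, 11 without G42, 22 without G27 and 32 without M17. Col1a1, the main fibrillar collagen of scars, was at 93.2, 119 and 94.3 CPM after PZH and 376, 208 and 1051 CPM in the DEN model rats (log2 fold change -2.40, SE 0.55, adjusted p = 0.0238), with 5.62 to 19.2 CPM in normal rats. The PZH administration rats were close together, below the lowest DEN model rat and above the highest normal rat. Col3a1 fell by 1.35 (adjusted p = 0.0345), Col8a1 by 2.11 (adjusted p = 0.00919), the collagen cross-linker Lox by 2.0 (adjusted p = 0.0302) and Timp1, the inhibitor of matrix-degrading proteases, by 1.46 (adjusted p = 0.0249). Of 15 activated stellate cell and myofibroblast markers 8 were lower and 0 higher, with 3 (M13) to 11 (M17) lower when 1 rat was left out. Acta2, smooth muscle actin, was at 10.4, 6.96 and 2.56 CPM against 56.9, 23.7 and 86.2 CPM (log2 fold change -3.02, SE 0.59, adjusted p = 0.0162), and Pdgfrb, the PDGF receptor of these cells, at 36.7, 40.6 and 33.5 CPM against 102, 75.4 and 99.5 CPM (log2 fold change -1.30, SE 0.19, adjusted p = 0.0093). Of 10 markers of quiescent stellate cells, Ecm1 (1.15) and Angptl6 (2.67) were higher and Reln (-1.35) and Rgs5 (-1.80) lower, with adjusted p from 0.0126 to 0.0312. Without M17 Ecm1 was no longer called (adjusted p = 0.0597), and without M13 or M24 none of the 10 was higher. Lrat, the retinyl ester enzyme that defines quiescent stellate cells, was at 31.2, 35 and 21.8 CPM against 31.1, 21.8 and 32.7 CPM and overlapped (log2 fold change 0.06, SE 0.24, adjusted p = 0.877).

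**Figure D5:**
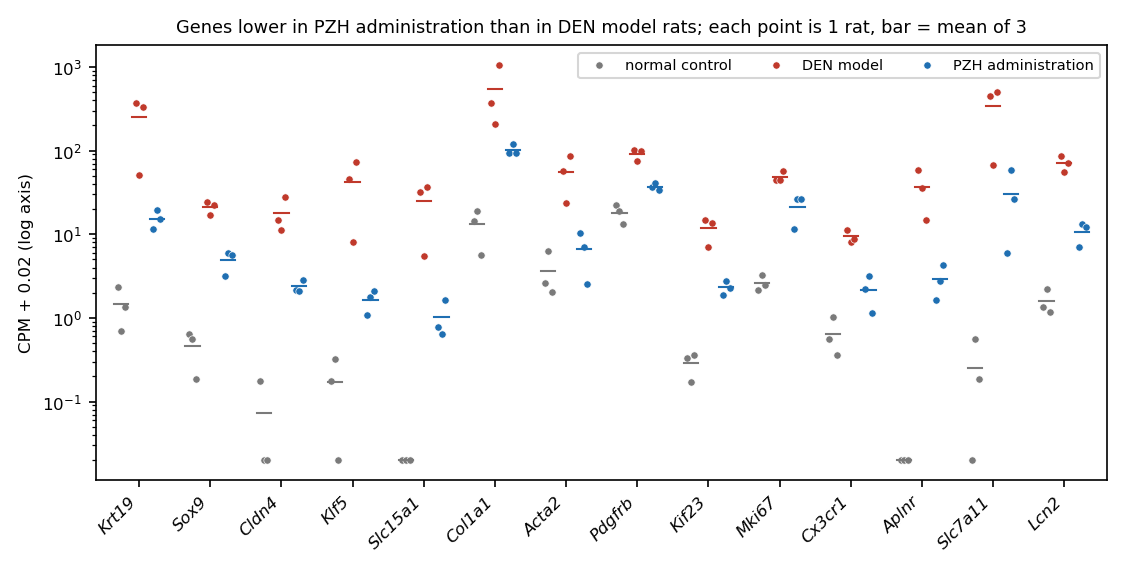
CPM plus 0.02 on a log axis for 14 genes lower after PZH, with 1 point per rat and the mean of 3 rats as a bar. In every gene drawn the 3 PZH administration rats (blue) lie below the 3 DEN model rats (red), as in 22.5% of all genes tested. In Slc7a11 the highest PZH administration rat, at 59.5 CPM, comes close to M17 at 67.1 CPM.

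Cell cycle genes were lower in part. Of 53 tested, 20 were lower and 1 higher (median log2 fold change -1.07), with 2 (M13, M24) to 17 (M17) lower when 1 rat was left out. Kif23, a kinesin of cell division, was at 1.88, 2.78 and 2.28 CPM after PZH and 14.9, 6.98 and 13.6 CPM in the DEN model rats (log2 fold change -2.34, SE 0.35, adjusted p = 0.00981). Mki67, the proliferation marker, was at 11.4, 26.6 and 26.4 CPM against 44.6, 44.5 and 57.4 CPM, and at 2.11 to 3.28 CPM in normal rats (log2 fold change -1.17, adjusted p = 0.0369). The PZH administration rats thus stayed above every normal rat. Cdc45 and Mcm2, parts of the replication helicase, fell by 2.94 (adjusted p = 0.0169) and 1.03 (adjusted p = 0.0219), whereas Mcm10, a replication initiation factor, rose by 1.32 (adjusted p = 0.0229). Cdk1, the mitotic kinase, had -0.67 (adjusted p = 0.226). Among 14 inhibitors and D cyclins 3 were lower, Cdkn2a (log2 fold change -4.54, adjusted p = 0.0137), Cdkn2b (-2.95, adjusted p = 0.0493) and Ccnd2 (-2.22, adjusted p = 0.0364), with 0 (M13) to 3 (M17) lower when 1 rat was left out. That was 21.4% called, near the 19.1% of all genes tested. Cdkn2a, at no more than 0.348 CPM after PZH, passed the count filter only through the DEN model rats and could hardly have been called higher. The p53 target Cdkn1a (0.35, adjusted p = 0.468) and Ccnd1 (-0.18, adjusted p = 0.592) overlapped between the groups.

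The ferroptosis and glutathione genes gave 3 higher and 7 lower of 39 tested, 25.6% against 19.1% of all genes (median log2 fold change -0.37). They gave 0 higher and 1 lower without M13, 0 and 3 without G28, 1 and 3 without M24, 1 and 4 without G27 or G42, 6 and 9 without M17, and 0 and 21 with library totals. Slc7a11, the cystine importer that feeds glutathione synthesis, was at 5.89, 59.5 and 26.6 CPM after PZH, at 451, 67.1 and 503 CPM in the DEN model rats and at no more than 0.534 CPM in normal rats. M17 and G28 nearly met, and all PZH administration rats were still above the normal rats (log2 fold change -3.46, SE 0.94, adjusted p = 0.0379). Gpx4, which reduces lipid peroxides, was at 173, 164 and 123 CPM against 139, 174 and 127 CPM and overlapped (log2 fold change 0.09, SE 0.22, adjusted p = 0.8). Gpx2, the glutathione peroxidase of epithelia, fell by 2.80 (adjusted p = 0.0137), and Alox15, a lipid-oxidising lipoxygenase, was at 0.341, 0.348 and 0.997 CPM against 152, 38 and 5.35 CPM (log2 fold change -6.88, SE 1.26, adjusted p = 0.0144). The 3 that rose were Gpx1 (1.08), Gch1, which makes tetrahydrobiopterin (1.18), and Steap3, a ferrireductase (0.70), with adjusted p from 0.0163 to 0.0396. Acsl4 (0.69, adjusted p = 0.111), the transferrin receptor Tfrc (-0.64, adjusted p = 0.251) and ferritin heavy chain Fth1 (-0.95, adjusted p = 0.0913) did not pass. Of 17 Nrf2-linked genes 6 were lower and 0 higher (median -0.39, and -0.16 without G27), with 0 (M13, M24) to 6 (M17) lower when 1 rat was left out, among them Nqo1 (-1.03, adjusted p = 0.0268), Txnrd1 (-1.14, adjusted p = 0.0431) and the exporter Abcc1 (-1.16, adjusted p = 0.0166). The share of Nrf2-linked genes called was 35.3%, against 19.1% of all genes tested.

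Markers of other cells in the tissue moved unevenly. Of 13 markers of recruited macrophages 10 were lower and 0 higher (median log2 fold change -1.63), with 0 (M13) to 10 (M17) lower when 1 rat was left out. Their summed level was 228 to 321 CPM after PZH and 579 to 1314 CPM in the DEN model rats. Cx3cr1, the fractalkine receptor, was at 2.22, 3.13 and 1.14 CPM against 11.3, 8.12 and 8.76 CPM (log2 fold change -2.09, adjusted p = 0.0137), and Cd68, a lysosomal protein of macrophages, fell by 0.95 (adjusted p = 0.0485). Trem2, a lipid-sensing receptor, had -2.01 (adjusted p = 0.215), with 1.91 CPM in its highest rat. Of 11 identifiers of resident Kupffer cell markers 9.09% were called, against 19.1% of all genes tested. Among these identifiers 1 was lower, with 0 (M13, M24, G28, G42) to 3 (G27) when 1 rat was left out. It was the complement gene C1qb (-1.19, adjusted p = 0.0368), and Clec4f, the defining lectin of these cells, overlapped (0.59, adjusted p = 0.296). Of 24 lymphocyte genes listed 14 could be tested, and 7.14% of these were called. The 1 lower gene (2 without M17) was Cd4, at 33.1, 37.1 and 35.1 CPM against 82.2, 70.1 and 81.6 CPM (log2 fold change -1.13, SE 0.16, adjusted p = 0.00919), a gene that macrophages of the rat also express. Cd3e, the T-cell receptor chain, had -2.60 (adjusted p = 0.118).

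Of 11 neutrophil and mast cell genes tested 7 were lower and 0 higher (median -1.75), with 2 (M13) to 8 (G28) lower when 1 rat was left out. The list's summed level was 20.3, 64.9 and 22 CPM in G27, G28 and G42, against 76.3 to 102 CPM in the DEN model rats. S100a8, a neutrophil calcium-binding protein, was at 0.768, 1.11 and 1.42 CPM after PZH and 5.81, 3.81 and 4.94 CPM in the DEN model rats (log2 fold change -2.13, adjusted p = 0.0125), and the defensin gene RatNP-3b, whose near copies may share reads, was at 0 CPM in the PZH administration rats, at least 10.8-fold lower (adjusted p = 0.00899). RatNP-3b passed the count filter only through the DEN model rats and could hardly have been called higher. Any member of this list or the red cell list near the floor after PZH has the same limit. Of 9 red cell identifiers tested 7 were lower and 0 higher, with 2 (M13) to 8 (M24) lower when 1 rat was left out, among them Alas2, the erythroid haem enzyme, at 1.11, 2.57 and 2.42 CPM against 29.1, 11.1 and 3.2 CPM (log2 fold change -2.83, adjusted p = 0.0348). The summed level of the red cell list spread from 231 CPM in M24 to 2100 CPM in M13 within the DEN model group, against 169 to 242 CPM after PZH. The part of these cell types in the other results was not tested.

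Endothelial markers went both ways, 2 higher and 0 lower of 13 sinusoidal and 7 lower and 0 higher of 13 vascular genes. Called were 15.4% of the sinusoidal and 53.8% of the vascular genes, against 19.1% of all genes tested. When 1 rat was left out, 0 (M13) to 5 (M17) sinusoidal genes were higher and 2 (M13) to 6 (M17, G28) vascular genes lower. With library totals the median of the sinusoidal genes dropped from 0.71 to 0.06. Fcgr2b, the sinusoidal Fc receptor, was at 114, 111 and 130 CPM after PZH and 51, 56.3 and 36.1 CPM in the DEN model rats (log2 fold change 1.33, adjusted p = 0.0106), and Clec4g, a sinusoidal lectin, rose by 1.36 (adjusted p = 0.0291). Aplnr, the apelin receptor of growing vessels, was at 1.62, 2.78 and 4.27 CPM against 58.1, 36.2 and 14.7 CPM (log2 fold change -3.65, SE 0.55, adjusted p = 0.0101), and Angpt1, a ligand of the endothelial receptor Tek, fell by 1.68 (adjusted p = 0.00897). Stab2 (0.84, adjusted p = 0.142) and Lyve1 (0.47, adjusted p = 0.241), scavenger and hyaluronan receptors of sinusoids, did not pass.

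Of 25 antigen presentation and interferon genes 3 were lower and 0 higher, RT1-Da, an MHC class II chain (-1.10, adjusted p = 0.0476), Gbp2 (-1.30, adjusted p = 0.0271) and the chemokine Cxcl10 (-1.43, adjusted p = 0.021), with 0 (M13, M24, G42) to 7 (G27) lower when 1 rat was left out. That was 12% called, under the 19.1% of all genes tested. Isg15, a typical interferon target, overlapped (0.31, adjusted p = 0.617). Of 26 immediate-early and stress genes 7 were higher and 0 lower (median log2 fold change 0.60, and -0.09 with library totals), with 1 (M13, M24, G28) to 7 (G42) higher when 1 rat was left out. That was 26.9% called, against 19.1% of all genes tested. Dusp1, a MAP kinase phosphatase, was at 243, 221 and 125 CPM after PZH and 50.1, 27.6 and 49.2 CPM in the DEN model rats (log2 fold change 2.25, SE 0.34, adjusted p = 0.0101). Fos (0.61, adjusted p = 0.376) and Atf3 (-0.01, adjusted p = 0.995) overlapped.

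As lists with no liver-specific role, 31 ribosomal protein identifiers had 0 called (median -0.14), with Rps18 at -0.09 (adjusted p = 0.761) and Rpl13a at -0.07 (adjusted p = 0.858). Without G27 2 of them were lower, and with library totals 19. Of 31 respiratory chain identifiers 12.9% were called, against 19.1% of all genes tested. Among these identifiers 4 were higher, Ndufa1 (1.01), Sdhd (0.77), Uqcrfs1 (0.73) and Cox7c (0.87), with adjusted p from 0.018 to 0.0471. None was higher without M13, M24 or G28, 1 was without G42, 2 were without G27 and 10 were without M17, where Cox7c itself was not called (adjusted p = 0.0619). Their median of 0.55 turned to -0.10 with library totals, while Ndufa4 (0.71, adjusted p = 0.0554) and Cox4i1 (0.63, adjusted p = 0.0942) did not pass. Of 17 circadian clock genes 11.8% were called, against 19.1% of all genes tested. Among these genes 2 were higher, Clock (0.98, adjusted p = 0.0352) and Nfil3 (1.18, adjusted p = 0.0322), and with library totals 0 were higher and 2 lower. None was higher without M13, M24, G28 or G42, 3 were higher and 2 lower without G27, and without M17 Clock was no longer called (adjusted p = 0.0529). Arntl, the partner of Clock, was at 15.3, 44.4 and 48 CPM after PZH and 10.6, 14.6 and 17.3 CPM in the DEN model rats (log2 fold change 1.35, adjusted p = 0.0514). Dbp, a clock output factor, ran the other way among the PZH administration rats, at 77.1, 4.73 and 3.27 CPM against 19.5, 26.6 and 10.6 CPM (log2 fold change 0.64, adjusted p = 0.696, and -2.22 with adjusted p = 0.0315 without G27). G27 was thus the lowest PZH administration rat in Arntl and the highest in Dbp.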

How the data were processed

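Liver RNA of 9 rats was sequenced, and 6 of them, 3 per group, entered the test. Per the labels the authors used fastp, HISAT2 2.1.0, StringTie 1.3.3b and edgeR 3.30.3. The genome build behind their coordinates is not given in the sources used here. The deposited table holds raw read counts per gene, made by the authors without normalization, and FPKM values that the authors scaled by transcript length and depth. Only the counts were used, and 18 columns of the authors' group means and comparisons (fold changes, P and Q values, up or down calls) were left out.

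Genes were filtered with filterByExpr, scaled with TMM over the 6 rats and tested with edgeR 4.0.16 (R 4.3.3) by quasi-likelihood fits, with Benjamini-Hochberg adjustment over all genes tested. The standard error is the absolute log2 fold change divided by the square root of F. Printed CPM use TMM factors over all 9 rats. DESeq2 1.42.0, library totals, other filters, a thinned library, all 9 rats in 1 fit and leaving out each rat were alternatives. An exact permutation test of 3 against 3 rats cannot go below p = 0.1 and was not used. Libraries of a group differed by far more than sampling noise (chi-square per degree of freedom 32.9 to 154). On simulated counts for this comparison (14315 genes), edgeR recovered 74% of 100 genes changed by 2 on the log2 scale and 93% of 100 changed by 3. It also called 11 unchanged genes. The simulation changed only these few genes, evenly up and down, whereas 19.1% of genes were called in the data. These rates therefore need not hold for the data.

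Members and gene lists were chosen with earlier results of these data known. Named were the 12 largest changes in each direction among genes with an official symbol past the study's thresholds, without overlap and with at least 10 CPM in either group, the lead genes of each list, and the member with the smallest p in each direction in each list. Genes outside that rule (such as Srd5a1, Anxa2, Cyp2c7 and LOC259244) and the promoters and motifs were chosen after their values were seen. Promoters came from RefSeq (GRCr8), matched by symbol for 9450 of 14182 tested symbols. Some genes that this rule names are not reported here.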

Additional observations from a re-analysis of the deposited data

How the results depend on the processing

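No paired analysis was possible because the rats carry different numbers in each group and no label ties a rat of one group to a rat of the other. The 2722 genes called became 6252 with library totals (556 higher, 5696 lower) and lay between 271 (without M13) and 3319 (without M17) when 1 rat was left out. The 347 genes past the study's thresholds became 925 with library totals (93 higher, 832 lower) and 648 with DESeq2, and lay between 160 (without M13) and 692 (without M17). The other settings (DESeq2 with 3781 for the former, no filter, at least 10 counts, all 9 rats, a thinned G27) stayed within 1.5 times of these counts. The cause was not tested. Of 31 list medians, 31 stayed within the spread with DESeq2 and 31 with all 9 rats in 1 fit. With library totals only 3 stayed, 24 moved and 4 changed sign. Between 18 (without G27) and 29 (without G28) stayed when 1 rat was left out.

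With library totals the median log2 fold change turned to -0.02 for growth hormone and IGF genes, -0.57 for all endothelial markers, -0.09 for immediate-early genes and -0.10 for respiratory chain genes. Single genes turned to -0.22 (Srd5a1), -0.07 (Cyp2c24), -0.64 (Lrat), -0.34 (Cdkn1a), -0.57 (Gpx4), -0.09 (Clec4f), -0.18 (Lyve1), -0.37 (Isg15), -0.13 (Fos), -0.06 (Dbp), -0.66 (Glul) and -0.04 (Cox4i1). When each rat was left out in turn, the endothelial median ran from -0.13 to 0.29, Onecut1 from -0.05 to 1.51, Afp from -2.63 to 0.63, Aldh3a1 from -1.36 to 0.31, Lrat from -0.12 to 0.25, Gpx4 from -0.01 to 0.24, Isg15 from -0.15 to 0.56, Atf3 from -0.66 to 0.28, Dbp from -2.22 to 1.17, Glul from -0.28 to 0.26 and Rpl13a from -0.33 to 0.07. Atf3 was 0.01 with DESeq2 and Glul -0.02 with all 9 rats. None of these single genes was called with all 6 rats, and Dbp was called lower without G27 (adjusted p = 0.0315 in edgeR's test). Depth limits genes near the floor of 3 counts, such as Trem2.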

Other observations

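In the major urinary protein cluster, the tested identifiers were mostly higher after PZH. Between positions 77243175 and 78064634 of chromosome 5, in the authors' coordinates (build not given in the sources used here), the table holds 45 identifiers, of which 14 were tested, 12 were higher after PZH and 0 lower, with log2 fold changes of 4.15 to 12.99. Their summed level was 7427, 2677 and 1549 CPM in G27, G28 and G42, 3.61, 3.17 and 3.36 CPM in M13, M17 and M24, and 9489 to 17718 CPM in the normal rats. The DEN model rats were close together and the PZH administration rats far apart. LOC259244, at 77245143 to 77492013, held the largest share of it in the PZH administration rats, with 4684, 1635 and 896 CPM after PZH and 0.127, 0.891 and 0.83 CPM in the DEN model rats (log2 fold change 11.96, SE 1.07, adjusted p = 0.00249 in edgeR's quasi-likelihood test). Its span overlaps other identifiers of the cluster, and near-identical copies may share reads, so the values of single identifiers are uncertain. The 12 higher identifiers each had a DEN model mean of no more than 0.616 CPM. They passed the count filter only through the PZH administration rats and could hardly have been called lower. Their shared direction is therefore no separate support, and they do not count as 12 independent results.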
